A study of Mus musculus with 27 samples.

Results

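Snhg6 and Snhg11 are small nucleolar RNA host genes, whose RNA was measured here in the brain of C57 and DBA mice, both inbred strains. The members were all probe sets on the unlettered arrays whose platform annotation gave Snhg6, Snhg11, another symbol beginning with Snhg, or Gas5. Of 18 such genes in the RefSeq gene table, 5 were on these arrays (Snhg1, Snhg5, Snhg6, Snhg11 and Gas5), with 8 of the 12488 probe sets. Snhg6 and Snhg11 themselves were picked on their difference between the strains in these same arrays, so that difference is given as a description with no test.

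The C57 group was 5 naive males, which the labels write as C57BL/2, and the DBA group was 4 naive DBA/2J mice of unstated sex. All animals were 10 weeks old. Each numbered array was taken as 1 animal. Every description, those of DBA samples included, also carries the alternative name C57 1, so groups were taken from the titles. No label says how brains were collected or whether strains were handled on separate days. The p-values set the difference between strains against the spread of animals within strains. Any difference in handling between the strains would be part of that difference and cannot be told apart from strain. The labels do not state the sex of the DBA animals, so strain and sex cannot be told apart.

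Small nucleolar RNAs (snoRNAs) guide chemical modification of ribosomal and other RNAs, and most mammalian snoRNAs are cut out of the introns of a host transcript. The spliced host RNA that remains is in many cases non-coding, begins with the pyrimidine-rich 5′ terminal oligopyrimidine (TOP) sequence typical of ribosomal protein messages, and is degraded by nonsense-mediated decay when it is translated. The probe sets are annotated to the host genes and not to the snoRNAs. Snhg11 is known as an RNA abundant in neurons, and Gas5 was first described as a transcript that accumulates in growth-arrested cells.

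RefSeq (assembly GRCm38.p6) lists all 5 genes as long non-coding RNAs. Snhg6 on chromosome 1 holds 1 annotated snoRNA gene, Snord87. Snhg11 on chromosome 2 holds 2, and Snhg5 on chromosome 9 also holds 2. Snhg1 on chromosome 19 holds 8, among them Snord22, and Gas5 on chromosome 1 holds 8, among them Snord47.

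RefSeq promoter entries matched 4 of the 5 genes, all but Snhg6. They are shown because the bases at the start decide whether a host RNA can begin with a TOP sequence. Each is given 5′ to 3′ on the strand of the gene, from 60 bases before to 50 after the annotated start in GRCm38.p6. Capitals mark the longest unbroken run of C and T that begins within 5 bases of that start. The windows are chr2:158375653-158375762 (+) for Snhg11, chr19:8723427-8723536 (+) for Snhg1, chr9:88522848-88522957 (-) for Snhg5 and chr1:161035106-161035215 (+) for the inner of a pair of Gas5 starts.
Snhg11: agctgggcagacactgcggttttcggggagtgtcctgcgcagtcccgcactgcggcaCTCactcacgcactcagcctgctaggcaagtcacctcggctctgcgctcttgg
Snhg1: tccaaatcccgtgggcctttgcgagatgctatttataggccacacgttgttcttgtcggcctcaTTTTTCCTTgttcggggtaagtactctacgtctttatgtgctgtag
Snhg5: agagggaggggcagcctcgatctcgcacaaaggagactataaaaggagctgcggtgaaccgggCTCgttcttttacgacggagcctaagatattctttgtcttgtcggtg
Gas5: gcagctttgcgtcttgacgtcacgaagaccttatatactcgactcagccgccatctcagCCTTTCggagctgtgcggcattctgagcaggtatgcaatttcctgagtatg

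The marked run was longest in Snhg1, at 9 bases, and 3.95% of the 32851 promoters in the table had a run as long. The inner Gas5 start had a run of 6 bases, a length reached in 13.7% of promoters. Snhg11, Snhg5 and the outer Gas5 start, which is not printed, had runs of 3 bases, a length reached in 62.2% of promoters. With the annotated start as base 1, the run began at base 5 in Snhg1 and base 4 in Snhg5. It began at base -3 in Snhg11, -1 at the inner Gas5 start and -5 at the outer one. Only the inner Gas5 run spans the annotated start, so an RNA from the annotated Snhg1 start would not begin with its run. In Snhg5 a longer run, ttctttt, follows the marked one but begins outside the 5-base window, so it was not counted. Across the whole 300-base entries, on either strand, TATAAA was found in Snhg1 and Snhg5 (13.6% of all promoters), CCAAT in Snhg5 (37.4%), TGACGTCA at the inner Gas5 start (1.79%) and CACGTG in none of the members (7.15%). None of these 4 motifs was found in the Snhg11 entry or at the outer Gas5 start.

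Snhg6 was lower in every DBA animal than in any C57 animal at its bright probe set, 96156_at. Its intensity in the 5 C57 animals was 1786.2, 1475.6, 1516.2, 1761.0 and 1810.1. In the 4 DBA animals it was 201.9, 224.4, 158.6 and 291.2. The lowest C57 animal lay 5.07-fold above the highest DBA animal, so the strains did not overlap. Geometric mean intensity was 1664 in C57 and 214 in DBA, a log2 difference (DBA minus C57) of -2.96 ± 0.17 (SE, n = 5 and 4). Of the 9316 probe sets bright enough to be tested, only 5 had a lower difference. In bulk brain RNA, fewer cells of a type and less RNA per cell cannot be told apart, here and for every gene that follows. Whether the probes match the DBA sequence as well as the C57 sequence was not checked for any probe set.

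A second Snhg6 probe set, 161635_f_at, carries the suffix that the array maker gives to sets whose probes can match a family of similar sequences. Its intensity was 30.2, 8.9, 28.8, 11.0 and 8.5 in C57 and 12.1, 10.8, 3.2 and 4.5 in DBA. All 9 values lay under the brightness limit of 35.4, the strains overlapped, and the probe set was left out of the tests. Its log2 difference of -1.17 had the same sign as that of the bright set.

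Snhg11, measured by the single probe set 97752_at, was also lower in every DBA animal. Its intensity in C57 was 1175.0, 1210.3, 989.1, 1243.4 and 1011.2. In DBA it was 247.9, 247.3, 385.2 and 284.0. There was no overlap, with a 2.57-fold gap between the lowest C57 and the highest DBA animal. The means were 1121 and 286, a 3.92-fold lower level in DBA with a log2 difference of -1.97 ± 0.15 (SE, n = 5 and 4). This was the 16th lowest of the 9316 differences.

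Snhg1, whose introns carry Snord22 and other snoRNAs, differed less. Intensity at 97838_at was 268.8, 259.5, 271.2, 187.5 and 201.2 in C57 and 172.8, 147.1, 143.4 and 158.7 in DBA. Every DBA animal lay below every C57 animal. Means were 235 and 155, and the log2 difference of -0.60 ± 0.14 missed the threshold with all animals and the deposited scaling (limma, Benjamini-Hochberg adjusted p = 0.0662). It passed after median centring of the arrays (adjusted p = 0.0470), with quantile normalization (0.0303), with the dimmest 50% of probe sets left out (0.0270) and without C57 animal 4 (0.0364). Over all alternatives its limma adjusted p ran from 0.0270 to 0.234 and its log2 difference from -0.51 to -0.68.

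Gas5 had 3 probe sets, of which 2 were tested. At 98531_g_at its intensity was 2937.2, 3850.7, 3462.9, 3931.6 and 3429.7 in C57 and 3186.8, 3135.8, 2817.5 and 2433.5 in DBA. The strains overlapped, with a log2 difference of -0.28 ± 0.13 (limma adjusted p = 0.406). At 98530_at it was 103.5, 112.0, 91.0, 98.0 and 69.2 in C57 and 72.1, 67.5, 105.5 and 103.5 in DBA, with a log2 difference of -0.13 ± 0.19 (limma adjusted p = 0.861). The third set, 101885_at, was under the brightness limit in all 9 animals, with values of 11.7 to 25.6 in C57 and 23.0 to 27.8 in DBA, and was not tested.

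Snhg5 was the only tested member with a difference above 0. Intensity at 104089_at was 92.5, 81.9, 78.5, 71.9 and 87.1 in C57 and 97.7, 101.0, 70.9 and 111.8 in DBA. The strains overlapped, and the log2 difference was 0.20 ± 0.15 (limma adjusted p = 0.679).

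Of the 4 tested probe sets of Snhg1, Snhg5 and Gas5, 0 passed the adjusted threshold of 0.05 in limma, where 2.50% of all tested probe sets passed (1.61% lower and 0.891% higher in DBA). At an unadjusted limma p under 0.05 there were 2 of the 4, Snhg1 and Gas5 98531_g_at, both lower in DBA, against 12.2% of all tested probe sets in either direction and 6.29% lower. The animals of the strains did not overlap for 1 of the 4, Snhg1, against 6.45% of all tested probe sets in either direction and 3.61% lower. A level over 2-fold lower in DBA was found at 1.14% of tested probe sets, a share that includes Snhg6 and Snhg11 by choice.

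**Figure D1:**
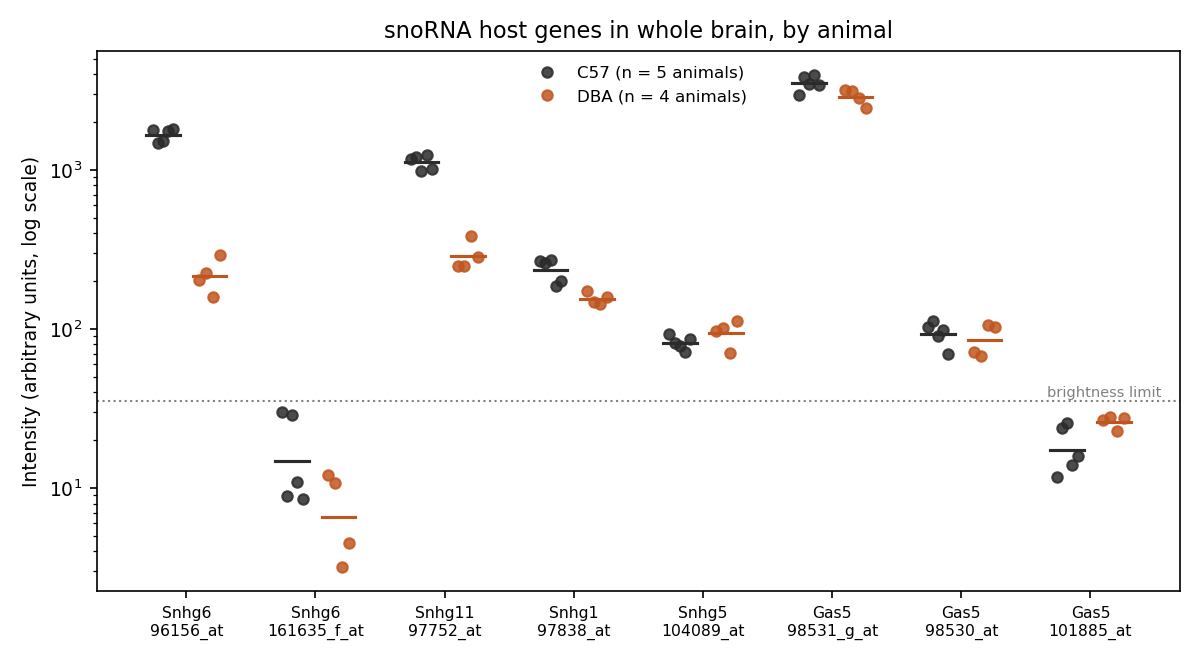
Intensity of the 8 probe sets of snoRNA host genes in each animal, in arbitrary units on a log scale, for 5 C57 (black) and 4 DBA (orange) animals. Horizontal bars are geometric means and the dotted line is the brightness limit of 35.4. The strains are apart at Snhg6 96156_at, Snhg11 and Snhg1 and overlap at the other 5 sets; levels of different probe sets are not comparable.

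Leaving out each animal in turn moved Snhg6 between -3.11 and -2.82 and Snhg11 between -2.11 and -1.90 on the log2 scale. Snhg1 moved between -0.68 and -0.55, Gas5 98531_g_at between -0.35 and -0.20, Gas5 98530_at between -0.24 and -0.02, and Snhg5 between 0.11 and 0.33. Every one of these members kept its sign without any 1 animal.

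**Figure D2:**
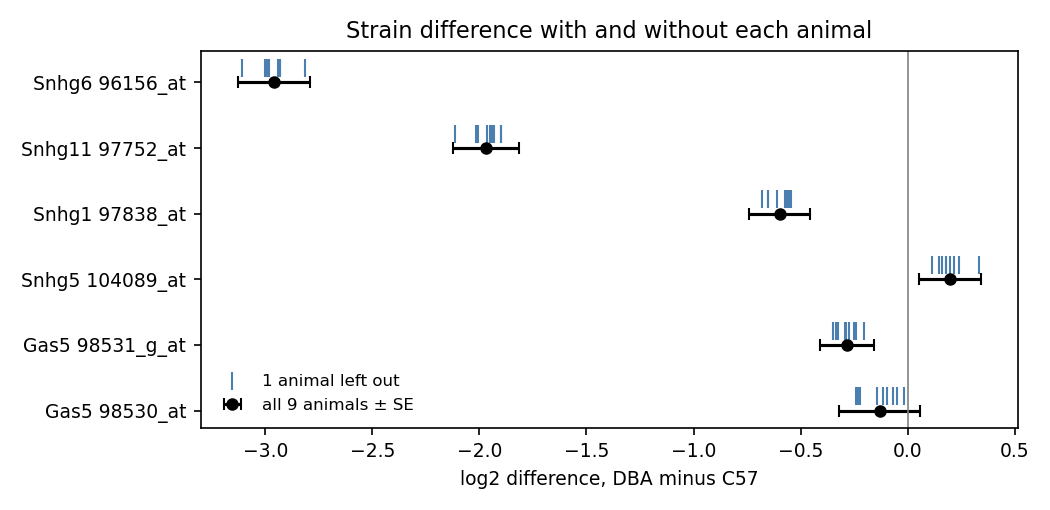
Log2 difference (DBA minus C57) of the 6 tested probe sets of snoRNA host genes, with its SE over all 9 animals (black) and the value with each animal left out in turn (blue ticks). Snhg6 stays between -3.11 and -2.82 and Snhg11 between -2.11 and -1.90, while both Gas5 sets and Snhg5 lie within 0.35 of 0.

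Spread within strains differed among the members. The SD of log2 intensity of Snhg6 was 0.36 in DBA and 0.14 in C57, that of Snhg11 was 0.30 and 0.15, and that of Snhg5 was 0.28 and 0.14. At the Gas5 sets it was 0.18 and 0.17 for 98531_g_at and 0.34 and 0.27 for 98530_at. For Snhg1 the order was the other way, with 0.12 in DBA and 0.25 in C57. Within strains, the pooled SD of Snhg6 was 0.26, larger than in 74.4% of the 500 probe sets nearest to it in level, and that of Snhg11 was 0.23, larger than in 63.8%. Snhg5, at 0.21, was larger than in 7.6% of its own 500 neighbours in level. No difference between SDs was tested.

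The DBA animals were not ordered alike for the 2 genes. DBA animal 3 had the lowest Snhg6 and the highest Snhg11, and DBA animal 4 had the highest Snhg6. Over all 9 animals, which form 2 separate strain clusters, log2 Snhg6 and Snhg11 had a Pearson r of 0.95. Deviations from the strain means had an r of -0.43 over the same 9 animals. For Snhg6, the r of deviations was 0.80 with Snhg5, -0.11 with Snhg1, -0.43 with Gas5 98531_g_at and -0.15 with Gas5 98530_at. For Snhg11 it was -0.67 with Snhg5, -0.27 with Snhg1, -0.13 with Gas5 98531_g_at and 0.77 with Gas5 98530_at, so the 2 Gas5 sets had opposite signs. These are descriptions with no test, and the arrays share their scaling.

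Probe sets most like each gene were ranked by Pearson r of log2 intensity over the 9 animals. For Snhg6 they were Rpp14 (0.993), Mtif2 (0.991), Zbtb45 (0.987) and Spg21 (0.987), each lower in DBA, by 2.91-, 1.84-, 2.34- and 8.02-fold. A probe set annotated to the microRNA gene Mir686 ranked between Zbtb45 and Spg21, and its values are left out because the microRNA itself was not matched. For Snhg11 they were Pdxdc1 (0.994), Usp38 (0.987), Prdx2 (0.982), Kif3b (0.981) and Srp9 (0.977), each lower in DBA, by 5.12-fold for Pdxdc1 and 3.44-fold for Srp9. An r over 0.9 was found at 120 probe sets with 1 symbol for Snhg6 and at 90 for Snhg11. This ranking mainly orders probe sets by a difference between the strains. With strain means subtracted, the 5 most like Snhg6 were Tmco1 (0.959), Acta1 (0.956), Anapc1 (0.951), Zcrb1 (0.941) and Dda1 (0.928), and none of these passed the strain threshold in limma (adjusted p from 0.155 to 0.923). The 5 most like Snhg11 were Kdelr2 (0.939), Arcn1 (0.937), Lsm8 (0.908), Ankzf1 (0.885) and Ruvbl2 (0.884), with limma adjusted p for strain from 0.451 to 0.958. Without the 2 animals farthest from the median, these r fell to between 0.762 and 0.891 for Snhg6 and between 0.656 and 0.877 for Snhg11. Over all 9 animals, an r of deviations over 0.9 was found at 17 probe sets with 1 symbol for Snhg6 and at 3 for Snhg11.

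The genes before and after Snhg6 on chromosome 1 were read from the RefSeq order, which the choice of members did not use. The arrays measured only 8 genes before Snhg6, and the nearest 10 after it were taken. Of these 18 genes, 17 had a tested probe set, and 3 of their 27 tested sets passed the threshold in limma, all lower in DBA. That is 11.1%, against 2.50% of all tested sets, and the 3 sets belong to 2 genes. The median log2 difference of the 27 sets was -0.02. The strains did not overlap at 5 of the 27 sets (18.5%, against 6.45% of all tested sets): 3 of Tcea1, 1 of Sox17 and 1 of Lypla1, an acyl-protein thioesterase gene whose set 101944_at differed by 0.36 ± 0.10 (limma adjusted p = 0.130).

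Tcea1, which encodes the transcription elongation factor TFIIS, was the fifth measured gene before Snhg6, at place 59 when unmeasured genes are counted. Its intensity at 101527_at was 1786.7, 1968.7, 1706.4, 1686.3 and 1590.8 in C57 and 434.3, 435.9, 499.1 and 747.7 in DBA. All DBA animals lay below all C57 animals, with a 3.38-fold lower level and a log2 difference of -1.76 ± 0.17 (limma adjusted p = 0.000317). DBA animal 4 was the highest DBA animal for Tcea1 at this set, as it was for Snhg6, but deviations of the 2 genes from their strain means had a Pearson r of 0.47 and a Spearman rho of 0.10 over 9 animals. The other Tcea1 sets fell less, by 0.88 ± 0.12 on the log2 scale at 101528_at (limma adjusted p = 0.00252), and the difference at 101529_g_at was -0.63 ± 0.15 (limma adjusted p = 0.0604). All 3 sets had no overlap between the strains.

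Sox17, a transcription factor of endoderm and endothelium, was the eighth measured gene before Snhg6, at place 73 when unmeasured genes are counted. At 92996_at its intensity was 306.1, 270.4, 297.2, 295.5 and 288.0 in C57 and 210.2, 171.4, 215.8 and 212.9 in DBA. The strains did not overlap, and the log2 difference was -0.53 ± 0.10 (limma adjusted p = 0.0240). Leaving out any of C57 animals 1, 3, 4 and 5 and DBA animals 1 and 2 ended the call (adjusted p from 0.0570 to 0.0666), and a second Sox17 set differed by 0.25 ± 0.56. The nearest measured neighbours did not pass. Cops5, the catalytic subunit of the COP9 signalosome, came first after Snhg6 and differed by -0.07 ± 0.10 (limma adjusted p = 0.861). Mybl1, a relative of the transcription factor Myb, came first before it and was under the brightness limit.

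Around Snhg11 on chromosome 2, 20 measured genes (10 on each side) had 18 tested probe sets in 17 genes. In limma, 1 passed lower in DBA and 1 passed higher, together 11.1% against 2.50% of all tested sets. The strains did not overlap at the same 2 sets, 11.1% against 6.45%, and the median log2 difference was 0.05.

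Slc32a1, which moves GABA and glycine into synaptic vesicles, was the second measured gene after Snhg11, at place 8 when unmeasured genes are counted. Its intensity at 101420_at was 3057.2, 5996.4, 4604.4, 7608.1 and 7767.4 in C57 and 1652.1, 1610.7, 1510.8 and 1724.4 in DBA. The strains did not overlap, and the log2 difference was -1.76 ± 0.26 (limma adjusted p = 0.00416). Deviations of Slc32a1 and Snhg11 from their strain means had an r of -0.07 over 9 animals. C57 animal 1, lowest for Slc32a1 among C57 animals, was not the lowest for Snhg11.

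Src, a non-receptor tyrosine kinase with a neuronal splice form, was the sixth measured gene before Snhg11 and differed the other way. Its place was 29 when unmeasured genes are counted. Its intensity at 99388_at was 108.7, 96.3, 74.8, 94.5 and 104.6 in C57 and 212.8, 237.5, 294.5 and 251.8 in DBA. All DBA animals lay above all C57 animals, with a 2.60-fold higher level and a log2 difference of 1.38 ± 0.14 (limma adjusted p = 0.000510). DBA animal 3 was highest for both Src and Snhg11 within its strain. Lbp, which encodes a lipopolysaccharide binding protein and came first before Snhg11, differed by 0.29 ± 0.21 (limma adjusted p = 0.678). Adig, an adipocyte gene that came first after it, was under the brightness limit.

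**Figure D3:**
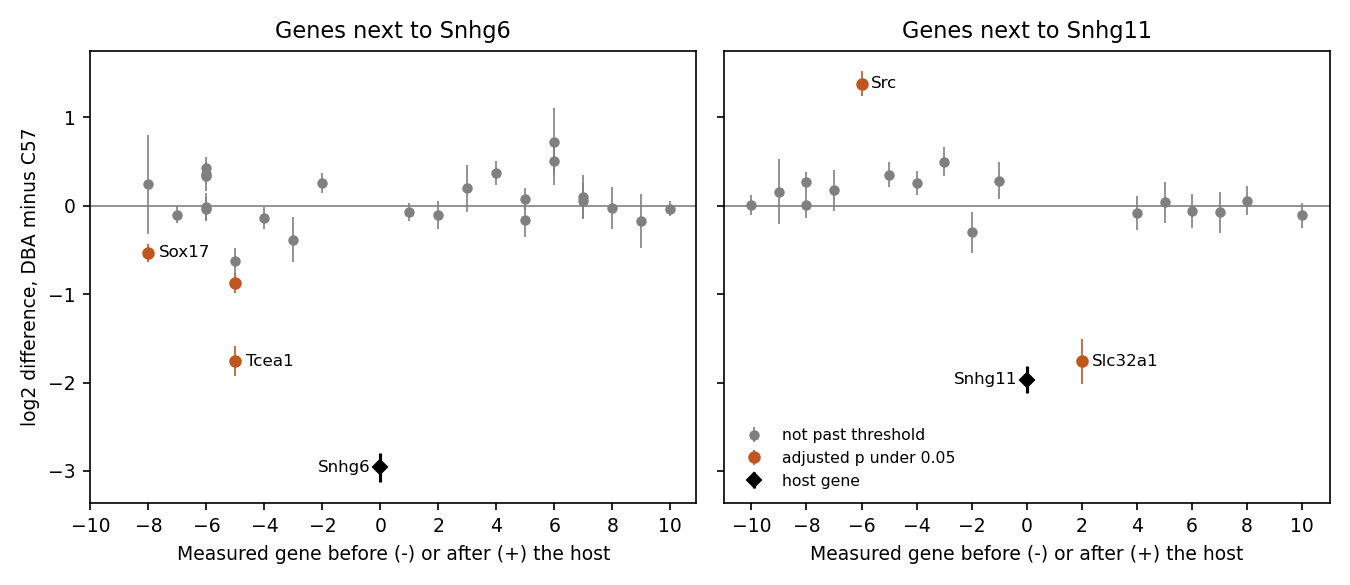
Log2 difference (DBA minus C57, bars are SE) of tested probe sets of genes measured before (negative) or after (positive) Snhg6 and Snhg11 in RefSeq order, by rank and not by distance; several sets of 1 gene share a position. Orange sets passed the limma threshold: 2 sets of Tcea1 and 1 of Sox17 beside Snhg6, Slc32a1 and Src beside Snhg11, with the hosts as black diamonds.

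Genes of the snoRNA pathway were taken from lists, with the brightest tested probe set of each gene. Among all 6864 tested genes, 53 passed higher and 100 lower in DBA, and the median log2 difference was 0.01. An unadjusted limma p under 0.05 was found for 841 of the 6864. Of 22 listed non-coding snoRNA hosts, the 5 members above were on the arrays. A difference below 0 was found in 4 of the 5, against 3292 of all 6864 tested genes. Those 4, and the median of -0.60, include the 2 genes chosen for their difference. Of 20 tested protein-coding snoRNA hosts, which include ribosomal proteins and translation factors, 0 passed in limma (2 at an unadjusted p under 0.05), and their median was -0.02. The smallest p among them was for Rpsa, a protein of the small ribosomal subunit, at -0.45 ± 0.10 (limma adjusted p = 0.0508). It passed with quantile normalization (0.0445), on log2(value + 32) (0.0402), with the dimmest 50% left out (0.0229) and with an intensity trend and robust variance (0.0129).

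Of 14 tested snoRNP and assembly proteins, 1 passed in limma, higher in DBA (3 at an unadjusted p under 0.05), and the median was -0.03. Of all 6864 tested genes, 153 passed and 841 had an unadjusted limma p under 0.05. The gene that passed was Pih1d1, a subunit of the R2TP complex that helps assemble snoRNPs. Its mean intensity was 480 in C57 and 689 in DBA, a log2 difference of 0.52 ± 0.10 (limma adjusted p = 0.0188). Median centring of the arrays ended the call (0.0861), as did leaving out C57 animal 2 (0.0616), DBA animal 3 (0.0525) or DBA animal 4 (0.0531). The other 2 genes at an unadjusted p under 0.05 had differences below 0: Nolc1, a nucleolar chaperone of snoRNPs, at -0.52 ± 0.14 (limma adjusted p = 0.105) and Nop10, of the H/ACA box particle, at -0.48 ± 0.13 (0.125). The tested core proteins of the C/D box particle, the class of Snord87, differed little. The differences were 0.06 ± 0.12 for the methyltransferase Fbl, -0.04 ± 0.10 for Nop56 and -0.05 ± 0.12 for Nop58. Snu13, also listed and part of that core, was not tested.

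Of 4 tested nonsense-mediated decay factors, 0 passed in limma (0 at an unadjusted p under 0.05), with a median of -0.01. The smallest p was for Pnrc2, which links decay to decapping, at -0.29 ± 0.24 (limma adjusted p = 0.721). Only 4 of 20 listed factors could be tested. Of 8 tested regulators of TOP messages, 0 passed in limma (1 at an unadjusted p under 0.05), with a median of 0.07. That 1 was the cap-binding protein Eif4e, at -0.50 ± 0.13 (limma adjusted p = 0.102).

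**Figure D4:**
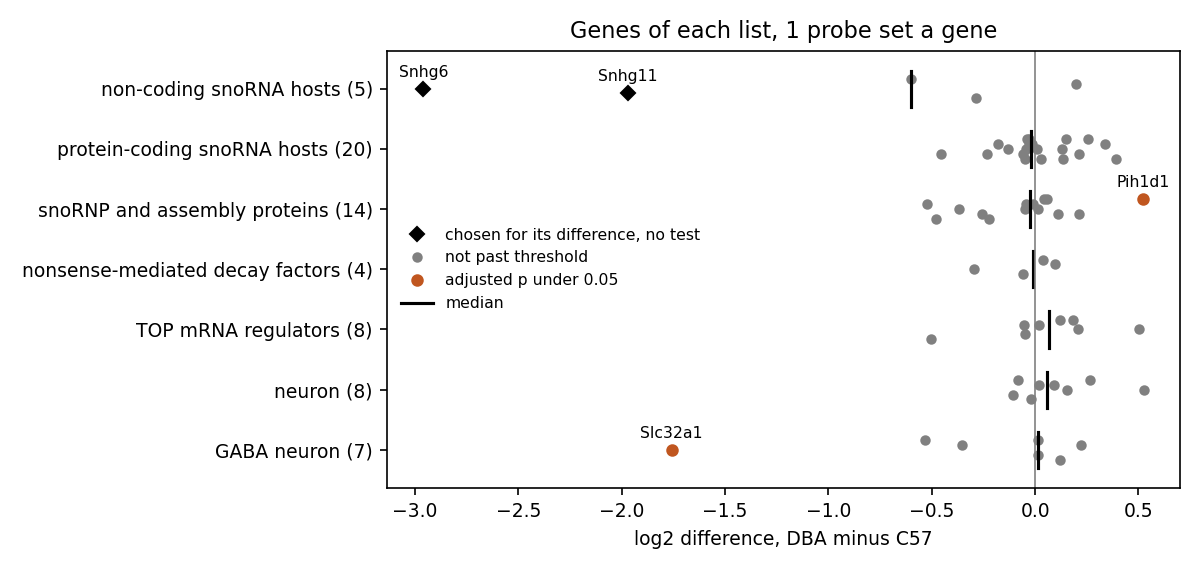
Log2 difference (DBA minus C57) of the brightest tested probe set of each gene in 5 snoRNA-related lists and 2 neuronal marker lists, with the number of genes in brackets and the list median as a black bar. Snhg6 and Snhg11 (diamonds) are the lowest genes shown, followed by Slc32a1, and the medians of the other lists lie between -0.03 and 0.07.

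Cell type markers were measured beside the members. For comparison with each list, 153 of all 6864 tested genes passed in limma, and 841 had an unadjusted p under 0.05. Of 8 tested general neuron markers, 0 passed in limma (2 at an unadjusted p under 0.05). Their mean log2 level ran from 11.52 to 11.69 in C57 and from 11.66 to 11.81 in DBA, and their median difference was 0.06. The smallest p was for Syn2, a synaptic vesicle protein, at 0.27 ± 0.09 (limma adjusted p = 0.205). Of 7 GABA neuron markers, 1 passed, Slc32a1, and 3 of the 7 were below 0. The other 6, none past the threshold, were the GABA-making enzymes Gad1 (0.01 ± 0.13) and Gad2 (0.22 ± 0.24), the peptide Sst (0.01 ± 0.13), the calcium-binding protein Pvalb (0.12 ± 0.14) and the transcription factors Dlx1 (-0.53 ± 0.41) and Dlx2 (-0.35 ± 0.29). None of 4 excitatory neuron markers passed (0 at an unadjusted p under 0.05); the smallest p was for Neurod1, at 0.33 ± 0.19 (0.55 without DBA animal 3 and 0.22 without DBA animal 4).

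Of 7 microglia markers 2 passed, both complement genes lower in DBA: C1qb at -0.85 ± 0.12 (limma adjusted p = 0.00343) and C1qc at -0.65 ± 0.13 (0.0318). The rest were C1qa (-0.15 ± 0.12), Csf1r (-0.06 ± 0.10), Cx3cr1 (0.04 ± 0.16), Aif1 (-0.18 ± 0.25) and Itgam (0.15 ± 0.21), and the list median was -0.15. A second C1qb set, 162276_i_at, was at -0.58 ± 0.31 (limma adjusted p = 0.517). Leaving out any of C57 animals 2, 4 and 5 and DBA animals 1, 2 and 3 ended the call of C1qc (adjusted p from 0.0525 to 0.104), as did median centring (0.107) and keeping dim sets (0.0656). The mean log2 level of the microglia list was 8.67 to 8.79 in C57 and 8.30 to 8.57 in DBA. All 5 tested oligodendrocyte markers were below 0, with a median of -0.57, and 0 passed at their brightest set in limma (3 at an unadjusted p under 0.05); Mag, a myelin glycoprotein, was at -0.57 ± 0.16 (adjusted p = 0.120, 0.0494 without C57 animal 2, and 0.0391 with an intensity trend and robust variance). Mobp passed at a dimmer set, 99046_at, at -0.84 ± 0.12 (limma adjusted p = 0.00416). A dimmer Mag set, 161846_r_at, went the other way and did not pass, at 0.29 ± 0.18 (limma adjusted p = 0.612). The mean log2 level of the oligodendrocyte list was 11.26 to 11.84 in C57 and 11.10 to 11.33 in DBA. Beside these counts, 153 of all 6864 tested genes passed in limma and 841 had an unadjusted p under 0.05. The part of neurons, microglia and oligodendrocytes in the differences of Snhg6 and Snhg11 was not tested.

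In the other marker lists 0 genes passed in limma, for 6 astrocyte, 6 vascular, 3 choroid plexus, 3 blood and 5 pituitary genes, with 1, 1, 1, 1 and 0 at an unadjusted p under 0.05. Slc1a2 differed by 0.34 ± 0.12, Vwf by -0.34 ± 0.11, Ttr by 0.85 ± 0.30, S100a8 by -1.01 ± 0.23 (limma adjusted p = 0.0506, 0.00493 without C57 animal 4, and 0.0399 to 0.0476 with other scaling or a floor of 20) and Cga by 0.36 ± 0.29. The mean log2 level of the blood list was 8.51 to 9.29 in C57 and 8.14 to 8.56 in DBA.

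The labelled tissue was checked against its markers. Snap25, Aldoc and Mbp lay above at least 99.4% of probe sets in level, the pituitary genes Prl and Gh lay above 26.3% and 53.2%, and the red blood cell genes Hba-a1 and Alas2 lay above 98.6% and 50.3%. Median intensity was 160.5 to 198.4 over the arrays, and pairs of arrays correlated at 0.939 to 0.978 across tested sets. As a measure of RNA quality, the 3′ over 5′ ratio (log2) of control sets was compared. It overlapped between strains for beta-actin (0.50 to 0.91 in C57, 0.52 to 0.66 in DBA). It did not for Gapdh (-0.29 to -0.19 in C57, -0.44 to -0.32 in DBA). The ratio also overlapped for 18S RNA, pyruvate carboxylase and the transferrin receptor. Its mean was lower in DBA than in C57 for every control gene. In DBA and C57 the means were 2.35 and 2.50 for 18S RNA and 0.56 and 0.69 for beta-actin. They were -0.36 and -0.24 for Gapdh, 0.66 and 0.98 for pyruvate carboxylase, and 1.74 and 1.88 for the transferrin receptor. The part of this ratio in the differences was not tested.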

How the data were processed

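The authors deposited intensities on a linear scale for 9 unlettered arrays of 12488 probe sets, 66 of them controls. Labelled cRNA was made from 5 ug of total RNA by the array maker's usual procedure, per the labels. Scanner software, probe summary and normalization were not given in the sources used here. The mean of the deposited intensities without the top and bottom 2% was about 500.3 on every array. The arrays whose titles carry a letter were not used here. Precision is limited by the number of arrays.

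A platform annotation named 10855 probe sets with 1 symbol and 396 with several, left 1237 unnamed, and 10839 symbols were updated through the RefSeq gene table (GRCm38.p6). Values under 1.7, the 1st percentile of positive values (0.978% of values), were raised to it and log2 was taken. The dimmest 25% of probe sets by mean were left out, at an intensity of 35.4, which left 9316. Strains were compared with lmFit and eBayes of limma 3.58.1 (R 4.3.3), 2-sided, with Benjamini-Hochberg adjustment over all 9316 sets and a threshold of 0.05. The script was checked on simulated data. Folds are ratios of geometric means. Figures were drawn with matplotlib 3.10.9.

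The members and lists were chosen with earlier results of these data known. Named are all member probe sets, each neighbour past the threshold and the nearest on each side, up to 4 members of a list past the threshold or the one with the smallest p, and the 5 probe sets most like Snhg6 or Snhg11 by each measure. Named outside that rule, after their values were seen, are Lypla1, Fbl, Nop56, Nop58, Nolc1, Nop10, Gad1, Gad2, Sst, Pvalb, Dlx1, Dlx2 and Mobp. The same holds for C1qa, Csf1r, Cx3cr1, Aif1 and Itgam, and for further sets of Tcea1, Sox17, Mag and C1qb. Alternatives were other scaling, floors, filters and variance models, the animal number as a block, and leaving out each animal.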

Additional observations from a re-analysis of the deposited data

Results flagged for a closer look

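In 58 groups of 4 or 5 animals looked at, 2 had 1 animal far from the others, where chance gives about 1 in 20. For Sox17 at 92996_at, the eighth measured gene before Snhg6, DBA animal 2 was lowest at 171.4, with the other DBA animals at 210.2 to 215.8. For the blood marker S100a8 at 103448_at, DBA animal 3 was highest at 45.7, with the others at 35.8 to 36.5. No group of Snhg6, Snhg11, Snhg1, Snhg5 or Gas5 had such an animal.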

How the results depend on the processing

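The log2 differences of Snhg6 and Snhg11 stayed within 1 SD of their values in all 9 fits that left out an animal and in all 8 other alternatives, at -3.11 to -2.78 for Snhg6 and -2.11 to -1.86 for Snhg11. The 233 probe sets called between strains became 184 to 228 with an animal left out and 73 with a replicate block. The animal number did not pair the strains (correlations of deviations of -0.10, -0.02, -0.01 and -0.17), so the replicate block pairs animals that share only a number. With the replicate block, called neighbours went from 5 to 3, pathway genes outside Snhg6 and Snhg11 from 1 to 0, and marker genes from 3 to 1. With an animal left out, these counts ran from 4 to 6, 0 to 2 and 2 to 5 (5 without C57 animal 2). Pathway genes numbered 3 with quantile normalization, 2 on log2(value + 32), 4 with the dimmest 50% left out and 3 with an intensity trend and robust variance, which gave 5 marker genes. Called sets of Snhg1, Snhg5 and Gas5 went from 0 to 1, Snhg1, with arrays centred on their median, quantile normalization or the dimmest 50% left out, and were 0 to 1 with an animal left out. Cops5 changed sign without DBA animal 3, to 0.0028. The correlation of Rpp14 with Snhg6 was 0.993 by Pearson and 0.967 by Spearman rank. Among single genes and probe sets, 383 values kept their direction and side of the threshold, 14 passed it only under the alternative, 23 lost it and 1 other rank correlation moved. The cause of these changes was not tested. Signal limits 2 member sets: Snhg6 161635_f_at and Gas5 101885_at lay under the brightness limit on all 9 arrays.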
